A study of Mus musculus with 8 samples.

Results

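The genes described here encode the non-collagen part of the extracellular matrix of fibroblasts, together with the enzymes that modify and cross-link collagen. They were chosen by name from a fixed list of 47 symbols, with earlier results of these data known. All 47 were found among the 12211 genes of the count table and had enough counts to be tested. The samples were RNA sequencing libraries of cultured mouse embryonic fibroblasts, connective tissue cells grown out from embryos. There were 4 control libraries (genotype WT in the labels) and 4 libraries labelled PUS10KO (genotype PUS10 KO), numbered 1 to 4 in each genotype. All 8 shared the same culture conditions, a DMEM medium with fetal bovine serum and antibiotics, and the labels name no treatment. Total RNA was made into stranded libraries and read from both ends. The PUS10 protein converts uridines of RNA to pseudouridine. The labels do not say how the gene was disrupted, which strain or embryonic age was used, or whether the 4 libraries of a genotype came from separate embryos or cultures. Every p-value below therefore reflects the spread among these libraries alone, and that spread may be technical.

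Fibroblasts build the matrix in layers. Fibrillin microfibrils act as a scaffold on which fibulins and lysyl oxidases place and cross-link elastin. Fibronectin, thrombospondins, tenascin and SPARC link the matrix to cell surface receptors and tune adhesion, while laminins, nidogens and perlecan form basement membranes. Collagen chains are hydroxylated on lysine and proline and folded inside the cell by PLOD and prolyl hydroxylase enzymes and the chaperone HSP47, and are trimmed and then cross-linked outside it by lysyl oxidases. Cultured embryonic fibroblasts are known as strong producers of most of these proteins.

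Total counts ran from 17561114 to 24563499 per library. Levels are given as CPM, read counts scaled to library size with the TMM factors of edgeR. Pus10 itself was lower in all 4 PUS10KO libraries, at 13.8 ± 1.6 CPM against 46.1 ± 6.46 CPM in controls (mean ± SD over 4 libraries, as everywhere below; log2 fold change -1.74, SE 0.15, edgeR adjusted p = 0.000189). Eif2s3y, a Y-linked gene, had 0 counts in the control libraries and at least 1197 in each PUS10KO library, so Y chromosome content coincided with genotype and their parts in any difference cannot be told apart. Of 13 fibroblast markers 7 fell and none rose, with a summed level of 16852 to 20119.6 CPM in control and 10922.5 to 14996 CPM in PUS10KO. Thy1 had 2 counts over the PUS10KO libraries. Pdgfra, also a fibroblast marker, had 49.8 ± 20.7 CPM in controls against 101 ± 21.1 in PUS10KO (edgeR adjusted p = 0.0605, and 0.00247 with the replicate block, where it was higher). Of 8 smooth muscle markers 5 fell and none rose, with summed levels of 6713 to 20062 and 2600.07 to 3584 CPM. Among them Cnn1 had 16.3 ± 13.3 CPM in controls against 44.9 ± 12.1 in PUS10KO (edgeR adjusted p = 0.146, and 0.00597 with the block, where it was higher). Of 4 neural markers tested Nes fell, from 133 ± 58.8 to 33.8 ± 12.7 CPM (edgeR adjusted p = 0.00894), and Map2 had 33.8 ± 20.9 CPM in controls against 13.2 ± 12.8 in PUS10KO (edgeR adjusted p = 0.304, and 0.00196 with the block). Of 2 cartilage markers tested Col2a1 rose, from 9.83 ± 1.3 to 31.2 ± 19.7 CPM (edgeR adjusted p = 0.0361), a call that 7 of the 8 fits without 1 library lost. Runx2, the bone marker tested, had 7.21 ± 1.17 CPM in controls against 9.73 ± 1.32 in PUS10KO (edgeR adjusted p = 0.183, and 0.0416 with the block). Few markers of epithelium, endothelium and macrophages were found: none of 8 epithelial, 2 of 8 endothelial and 3 of 8 macrophage markers stood in the table, each of these at or under 2.94 CPM on average. The part of these shifts in the results below was not tested, and fewer cells of a type cannot be told apart from less RNA per cell.

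Of the 47 genes 2 were higher in PUS10KO, 7 were lower and 38 missed the threshold (edgeR's quasi-likelihood test, adjusted p under 0.05 over the 11909 genes tested). Over all genes tested 13.0% were called, 5.90% higher and 7.11% lower. The members that fell were the lysyl oxidase genes Loxl2 and Loxl3, the lysyl hydroxylase gene Plod2, the elastic fibre genes Mfap5, Fbln5 and Fbln2, and Sparc. Those that rose were Thbs2, a thrombospondin, and Hmcn1, which encodes the giant matrix protein hemicentin 1. The median log2 fold change of the members was -0.19, against 0.01 over all genes tested. It was 0.0001 without control 1, -0.05 without PUS10KO 2, -0.11 without control 4 and -0.28 without PUS10KO 4. For 2 members every PUS10KO library lay above every control library and for 8 every one lay below, where 9.70% and 10.6% of all tested genes did so. In either direction 20.3% of all tested genes did so. These 10 were the 9 called genes and Lamb1. DESeq2 called 3 members higher and 8 lower (9.39% and 10.5% of all genes), and limma voom 2 and 7 (5.87% and 6.84%).

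**Figure D1:**
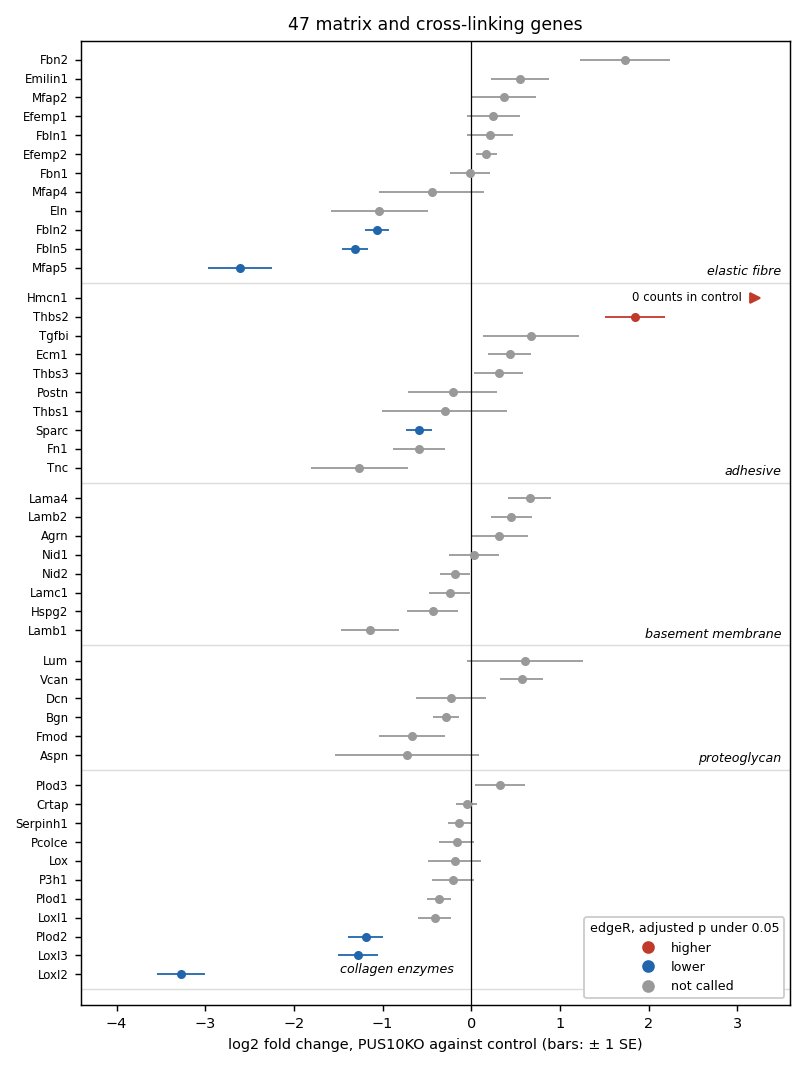
Log2 fold change of PUS10KO against control for the 47 genes in 5 role groups, with bars of ± 1 SE from the edgeR fit and colours for the calls. Loxl2 lies farthest to the left at -3.28, and Hmcn1 is drawn as an arrow because it had no counts in control.

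The libraries of a number resembled each other across genotypes, so a fit with the replicate number as a block was run beside the main one. Numbers 3 and 4 also resembled each other across genotypes, which makes the pairing less clear there. With that block 9 members rose and 14 fell, and all 9 called without it were among them. In the same fit 39.0% of all genes tested passed, 19.1% higher and 19.9% lower. The share of members called in it, 23 of 47, stands beside those background values.

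Among the 12 elastic fibre and microfibril genes 3 fell, none rose and 9 did not pass. Mfap5 encodes a small glycoprotein (MAGP-2) that binds fibrillin microfibrils (ENSMUSG00000030116.14, chromosome 6, 122505845 to 122529290, plus strand, GENCODE M21 on GRCm38). It had 74.1, 44.8, 26 and 27.9 CPM in controls 1 to 4, against 8.65, 5.25, 6.67 and 7.79 CPM in PUS10KO 1 to 4. Controls 1 and 2 were the highest, and no PUS10KO library came near the lowest control. Mean levels were 43.2 ± 22.3 CPM in controls against 7.09 ± 1.47 in PUS10KO (SD, n = 4), a log2 fold change of -2.61 (SE 0.36, edgeR adjusted p = 0.002), or 6.1-fold lower.

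Fbln5 encodes fibulin-5, which tethers elastin and lysyl oxidases to microfibrils (ENSMUSG00000021186.9, chromosome 12, 101746565 to 101819055, minus strand). It had 348, 349, 426 and 361 CPM in controls 1 to 4, against 148, 117, 169.6 and 164 CPM in PUS10KO 1 to 4. The 4 PUS10KO values lay close together and below each control. Mean levels were 371 ± 37 CPM in controls against 149.7 ± 23.7 in PUS10KO (log2 fold change -1.31, SE 0.15, edgeR adjusted p = 0.00081). Chromosome 12, where it lies, had a median log2 fold change of -0.60 over 402 tested genes, and relative to that median Fbln5 stood at -0.71.

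Fbln2, which encodes fibulin-2, a ligand of fibronectin and elastic fibres (ENSMUSG00000064080.12, chromosome 6, 91212455 to 91272540, plus strand), had 2356, 2218, 2516 and 2420.1 CPM in controls 1 to 4, against 1166, 949.8, 1122 and 1319 CPM in PUS10KO 1 to 4. Its spread was narrow within each genotype, with no overlap between them. The mean was 2377 ± 125 CPM in controls against 1139 ± 152 in PUS10KO, or 2.09-fold lower (log2 fold change -1.06, SE 0.14, edgeR adjusted p = 0.00153).

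Fbn2, the fibrillin gene used mostly in embryonic tissue, did not pass the test. It had 25.8, 21, 42.3 and 57.4 CPM in controls 1 to 4, against 55.4, 59.9, 143 and 229.6 CPM in PUS10KO 1 to 4. Libraries 3 and 4 were the higher ones in each genotype, and PUS10KO 1 lay between controls 3 and 4, so the genotypes overlapped. Its log2 fold change was 1.73 (SE 0.51, edgeR adjusted p = 0.0571, and 8.11e-05 with the replicate block). DESeq2 gave an adjusted p of 0.00355.

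Fbn1, the main fibrillin gene, had 124 CPM per kb in control and 124 in PUS10KO, against 2.77 CPM per kb in control and 9.22 in PUS10KO for Fbn2 (level per kb of exon). Fbn1 had a log2 fold change of -0.01 (edgeR adjusted p = 0.984). Elastin itself was barely expressed, as Eln had 2.58, 2.08, 4.38 and 4.93 CPM in controls 1 to 4, against 0.551, 0.955, 1.86 and 3.46 CPM in PUS10KO 1 to 4. Each PUS10KO library was lower than the control of its number, but the genotypes overlapped (log2 fold change -1.04, edgeR adjusted p = 0.27, and 0.0108 with the block). Emilin1, which encodes an elastin-associated glycoprotein, had a log2 fold change of 0.55 (edgeR adjusted p = 0.336, and 0.00476 with the block).

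The other 5 elastic fibre genes did not pass with or without the block, and their log2 fold changes ran from -0.45 for Mfap4 to 0.37 for Mfap2. Both encode microfibril-associated proteins and were low, with 0.711 ± 0.233 CPM in controls against 0.531 ± 0.386 in PUS10KO for Mfap4. Among these 5 the fibulin genes Efemp1 (fibulin-3) and Efemp2 (fibulin-4) were the most abundant per length, with 296 CPM per kb in control and 352 in PUS10KO for Efemp1 and 77.2 CPM per kb in control and 86.6 in PUS10KO for Efemp2. Fbln1 had 62.7 ± 14.3 CPM in controls against 72.6 ± 24.3 in PUS10KO.

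In the group of 10 adhesive and matricellular glycoproteins 2 rose, 1 fell and 7 did not pass. Thbs2 encodes thrombospondin-2, a secreted protein that limits angiogenesis and binds matrix metalloproteinases (ENSMUSG00000023885.9, chromosome 17, 14665500 to 14694235, minus strand). Its levels were 76.2, 64.7, 146 and 168 CPM in controls 1 to 4, against 305, 345, 449.9 and 540.0 CPM in PUS10KO 1 to 4. The lowest PUS10KO library, number 1, was above the highest control, number 4. Mean levels were 114 ± 50.9 CPM in controls against 409.8 ± 106 in PUS10KO, or 3.61-fold higher (log2 fold change 1.85, SE 0.34, edgeR adjusted p = 0.00753).

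Hmcn1 (ENSMUSG00000066842.18, chromosome 1, 150562524 to 150993435, minus strand) had no counts in control and 492 counts over the PUS10KO libraries. Its levels there were 0.881, 2.23, 7.26 and 13.4 CPM, lowest in number 1 and highest in number 4. Against a floor of 3 counts over the control group, or 0.0379 CPM, it was at least 152-fold higher (edgeR adjusted p = 0.0161). Without PUS10KO 4 the bound was 96.1-fold. Even so it remained one of the lower members per length, with 0.281 CPM per kb in PUS10KO.

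Sequence upstream of both genes that rose is shown, with that of Fbln5 as a gene that fell. Each run holds the 250 bases before the RefSeq start, 5′ to 3′ on the gene's strand (RefSeq, GRCm38.p6); of the 47 members 31 had an entry in that promoter table, of the 9 called members 5, and windows that overlap an annotated exon are not shown. Capitals mark matches, on either strand, to the letters TATAAA of a TATA-type promoter, to CCAAT of a binding site for NF-Y, to GGGCGG of a site for SP1, to TGANTCA of a site for AP-1 or to GGAATG of a site for TEAD factors, and no matches overlapped each other.
Thbs2, chr17:14694263-14694512, minus strand: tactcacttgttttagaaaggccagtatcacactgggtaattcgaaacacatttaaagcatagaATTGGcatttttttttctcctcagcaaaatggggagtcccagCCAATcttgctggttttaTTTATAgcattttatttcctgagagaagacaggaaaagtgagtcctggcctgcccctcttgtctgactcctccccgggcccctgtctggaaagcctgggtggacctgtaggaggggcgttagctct
Hmcn1, chr1:150993436-150993685, minus strand: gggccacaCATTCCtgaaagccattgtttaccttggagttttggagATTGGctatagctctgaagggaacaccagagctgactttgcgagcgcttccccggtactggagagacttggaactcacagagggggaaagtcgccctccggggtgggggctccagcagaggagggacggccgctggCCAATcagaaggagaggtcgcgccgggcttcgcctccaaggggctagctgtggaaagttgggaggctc
Fbln5, chr12:101819120-101819369, minus strand: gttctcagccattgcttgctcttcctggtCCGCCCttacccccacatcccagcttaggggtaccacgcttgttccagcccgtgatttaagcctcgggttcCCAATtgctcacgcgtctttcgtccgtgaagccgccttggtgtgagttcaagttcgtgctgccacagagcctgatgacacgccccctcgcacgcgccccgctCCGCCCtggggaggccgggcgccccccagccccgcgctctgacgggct
All 3 windows held at least 1 CCAAT match, as did 33.9% of the 32851 promoter windows of that length in the table. Thbs2 had a TATAAA match on the opposite strand at positions -126 to -121 from the start (12.4% of windows hold one). In Hmcn1 GGAATG matched once on the opposite strand, at -242 to -237 (12.6% of windows). Fbln5 had GGGCGG matches at -221 to -216 and -48 to -43, both on the opposite strand (32.7% of windows). None of the 3 windows held TGANTCA, which 6.75% of all windows hold. These matches describe the letters only.

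Sparc, which encodes a collagen-binding matricellular glycoprotein, was among the most abundant members (ENSMUSG00000018593.13, chromosome 11, 55394500 to 55423183, minus strand). It had 3628, 3373, 2962 and 2937 CPM in controls 1 to 4, against 2283, 1753, 2247 and 2307 CPM in PUS10KO 1 to 4. The groups did not overlap, and PUS10KO 2 was the lowest of all 8. Its mean moved from 3225 ± 335 to 2147 ± 264 CPM, 1.5-fold lower (log2 fold change -0.59, SE 0.15, edgeR adjusted p = 0.0305). This call was kept without control 4 and lost without any 1 of the other 7 libraries: the adjusted p was 0.0594, 0.0701 and 0.0573 without controls 1, 2 and 3, and 0.053, 0.0802, 0.079 and 0.0594 without PUS10KO 1, 2, 3 and 4.

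Tnc encodes tenascin-C, an anti-adhesive glycoprotein of embryonic and wounded tissue. It had 2209, 1424, 649 and 714 CPM in controls 1 to 4, against 907, 689.8, 255 and 229 CPM in PUS10KO 1 to 4. Libraries 1 and 2 were the higher ones in both genotypes, and each PUS10KO library was lower than the control of its number, by 1.05 to 1.64 on the log2 scale. The log2 fold change was -1.26 (SE 0.55, edgeR adjusted p = 0.183, and 4.6e-05 with the block).

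Thbs1, which encodes thrombospondin-1, an activator of latent TGF-beta, varied more between numbers than between genotypes. It had 14736, 7162, 2207 and 2273 CPM in controls 1 to 4, against 11661, 3887, 2331 and 3541 CPM in PUS10KO 1 to 4. Number 1 was the highest in each genotype, and the genotypes overlapped (log2 fold change -0.30, SE 0.70, edgeR adjusted p = 0.833). Per length it was the second most abundant member in control, with 1086 CPM per kb in control and 882 in PUS10KO.

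Fibronectin (Fn1), the main adhesive glycoprotein of fibroblast cultures, had 3285, 2017, 2973 and 1857 CPM in controls 1 to 4, against 1334, 1105, 1804 and 2491 CPM in PUS10KO 1 to 4. PUS10KO 1 to 3 lay below controls 1 to 3, and PUS10KO 4 lay above controls 2 and 4 (log2 fold change -0.59, edgeR adjusted p = 0.242). Tgfbi, a TGF-beta-induced adhesion protein gene, had a log2 fold change of 0.67 (edgeR adjusted p = 0.481, and 0.028 with the block), and Ecm1 had 0.43 (0.295, and 0.0346 with the block). Postn, which encodes periostin, had 354, 251, 339 and 886 CPM in controls 1 to 4, against 228, 224, 371 and 759.6 CPM in PUS10KO 1 to 4, with number 4 the highest in both genotypes. Thbs3 had a log2 fold change of 0.31 (edgeR adjusted p = 0.529).

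**Figure D2:**
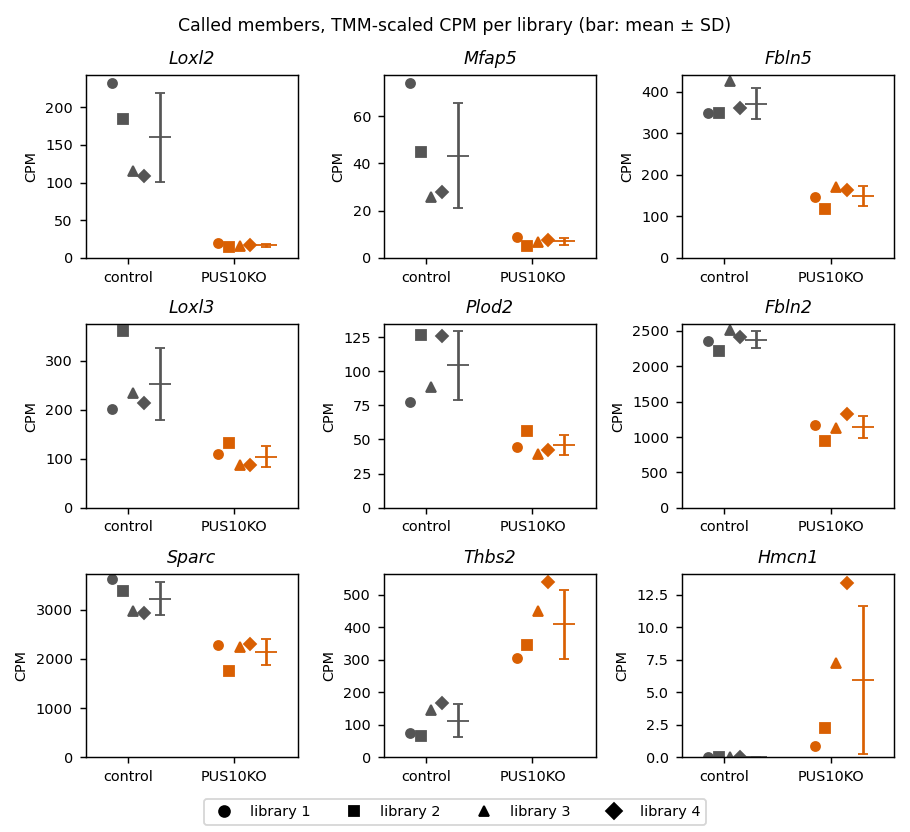
TMM-scaled CPM in each library for the 9 called genes, with 1 marker shape per library number and the mean ± SD beside the points. In each panel the control and PUS10KO points do not overlap, and in Hmcn1 the control points lie at 0.

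Of the 8 basement membrane genes edgeR called 0 without the block, where 2 reached an unadjusted p under 0.05. Limma voom called 0, and DESeq2 called Lamb1. Lamb1 encodes the laminin beta 1 chain. It had 731, 730.2, 397 and 351 CPM in controls 1 to 4, against 332, 316, 179 and 172 CPM in PUS10KO 1 to 4. The genotypes did not overlap, and libraries 1 and 2 were above libraries 3 and 4 in both. Lamb1 had a log2 fold change of -1.15 (SE 0.33, edgeR adjusted p = 0.0515, just outside the threshold, and 1.98e-05 with the block). It also lies on chromosome 12, and relative to the median of that chromosome it stood at -0.54.

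Lama4, which encodes the laminin alpha 4 chain of vessel and mesenchymal basement membranes, had 196, 105, 120.0 and 205 CPM in controls 1 to 4, against 249, 186, 274 and 280.0 CPM in PUS10KO 1 to 4. PUS10KO 2 lay below controls 1 and 4 (log2 fold change 0.66, edgeR adjusted p = 0.124, and 0.00499 with the block). Lamb2, the gene of the alternative beta 2 chain, had 268, 151, 169.6 and 143 CPM in controls 1 to 4, against 270.0, 176, 265 and 289.6 CPM in PUS10KO 1 to 4 (log2 fold change 0.45, edgeR adjusted p = 0.265, and 0.0413 with the block). Without control 1 its adjusted p was 0.0485.

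The share of Lamb1 in the summed level of Lamb1 and Lamb2 per kb went from 64.1 ± 7.23% in control to 37.8 ± 12.1% in PUS10KO. In control it was 62.6, 74.7, 59 and 60.2% in libraries 1 to 4, and in PUS10KO 43, 52.3, 29.2 and 26.6%. The highest PUS10KO share lay below the lowest control share. This share was computed because of the opposite signs of the pair and is a description.

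The other 5 basement membrane genes did not pass with or without the block. They were Lamc1 (the laminin gamma 1 chain), the nidogen genes Nid1 and Nid2, Hspg2 (perlecan) and Agrn (agrin), with log2 fold changes from -0.44 for Hspg2 to 0.32 for Agrn. Nid1 was the most abundant of the 8 per length, with 86.7 CPM per kb in control and 88.5 in PUS10KO. Its log2 fold change was 0.03 (edgeR adjusted p = 0.965). Hspg2 was lowest in control 4, and had 163, 103, 119 and 52 CPM in control libraries 1 to 4 against 88.4, 78.9, 74.7 and 80.7 CPM in PUS10KO.

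Of the 6 proteoglycan genes edgeR called 0, with 1 at an unadjusted p under 0.05. DESeq2 and limma voom called 0, and with the block 2 passed as lower. Vcan encodes versican, a large hyaluronan-binding proteoglycan. It had 602, 527, 883 and 1115 CPM in controls 1 to 4, against 1201, 1332, 1174 and 936 CPM in PUS10KO 1 to 4. PUS10KO 1 to 3 lay above every control, and PUS10KO 4 lay between controls 3 and 4 (log2 fold change 0.57, edgeR adjusted p = 0.179, and 0.0595 with the block).

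The small leucine-rich proteoglycans bind collagen fibrils and set their spacing. Bgn, which encodes biglycan and is X-linked, was the most abundant of them per length, with 88.3 CPM per kb in control and 72.4 in PUS10KO. It had 584, 466, 591 and 514 CPM in controls 1 to 4, against 407, 388, 441 and 529 CPM in PUS10KO 1 to 4 (log2 fold change -0.29, edgeR adjusted p = 0.247). PUS10KO 4 lay within the control range. Dcn, the decorin gene, had 220.1, 87.9, 70.4 and 121 CPM in controls 1 to 4, against 90.8, 60.2, 118 and 157 CPM in PUS10KO 1 to 4, with control 1 the highest (log2 fold change -0.23, edgeR adjusted p = 0.764).

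Aspn, which encodes asporin, ran over a wide range within each genotype. It had 41.6, 32.7, 74.4 and 212 CPM in controls 1 to 4, against 9.69, 22.1, 61.6 and 124 CPM in PUS10KO 1 to 4. Number 4 was the highest and each PUS10KO library was below the control of its number (log2 fold change -0.73, SE 0.81, edgeR adjusted p = 0.628, and 0.025 with the block). Fmod (fibromodulin) and Lum (lumican) were near the bottom of the members, with 2.64 ± 0.631 CPM in controls against 1.67 ± 0.817 in PUS10KO for Fmod and 0.714 ± 0.471 CPM in controls against 1.11 ± 0.804 in PUS10KO for Lum. Fmod had a log2 fold change of -0.66 (edgeR adjusted p = 0.301, and 0.0332 with the block), and Lum had 0.61 (0.612).

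Among the 11 genes of collagen cross-linking, modification and processing 3 fell, none rose and 8 did not pass. Loxl2 encodes a secreted copper-dependent lysyl oxidase that cross-links collagen IV as well as fibrillar collagen (ENSMUSG00000034205.16, chromosome 14, 69609068 to 69695834, plus strand). It had 232, 185, 115 and 109 CPM in controls 1 to 4, against 19.5, 14.2, 15.3 and 17.2 CPM in PUS10KO 1 to 4. The 4 PUS10KO libraries were nearly level, whereas controls 1 and 2 were the higher pair in control. Mean levels were 160.3 ± 59.1 CPM in controls against 16.6 ± 2.32 in PUS10KO, or 9.69-fold lower (log2 fold change -3.28, SE 0.27, edgeR adjusted p = 0.000171). Without any 1 library the log2 fold change ran from -3.41 to -3.03.

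Loxl3, a lysyl oxidase gene of the same scavenger-receptor-domain subfamily (ENSMUSG00000000693.10, chromosome 6, 83034173 to 83052562, plus strand), had 202, 361, 234 and 215 CPM in controls 1 to 4, against 110.0, 132, 87.7 and 87.8 CPM in PUS10KO 1 to 4. Number 2 was the highest in each genotype, with no overlap between them. Mean levels were 253 ± 73.2 CPM in controls against 104 ± 21 in PUS10KO (log2 fold change -1.28, SE 0.22, edgeR adjusted p = 0.00599). Its locus overlaps Htra2 on the opposite strand, which had a log2 fold change of -0.21 (edgeR adjusted p = 0.556).

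Lox, the founding lysyl oxidase gene, was the most abundant of the family. It had 5867, 3458, 2608 and 2652 CPM in controls 1 to 4, against 3837, 2244, 2909.7 and 3815 CPM in PUS10KO 1 to 4. The genotypes overlapped over most of their range, with control 1 the highest (log2 fold change -0.19, SE 0.30, edgeR adjusted p = 0.743). Loxl1, which encodes the oxidase that acts on elastin with fibulin-5, had 334, 241, 249.6 and 199 CPM in controls 1 to 4, against 235, 196, 168 and 169 CPM in PUS10KO 1 to 4 (log2 fold change -0.41, edgeR adjusted p = 0.195, and 0.00759 with the block).

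The levels per kb of exon of the 4 lysyl oxidase genes among the members were summed. Loxl4, a further lysyl oxidase gene, is not a member and was left out of the sum. It had 59.7 ± 10.5 CPM in controls against 69.7 ± 17.1 in PUS10KO (log2 fold change 0.22, edgeR adjusted p = 0.533). Lox went from 81.6 ± 3.6% in control to 88.4 ± 3.28% in PUS10KO of the sum over the 4 members. Loxl2 went from 3.21 ± 0.373% in control to 0.412 ± 0.0431% in PUS10KO of that sum, and Loxl3 from 6.47 ± 2.37% in control to 3.18 ± 1.3% in PUS10KO. The Loxl2 share was at least 2.95% in each control and at most 0.469% in each PUS10KO library. The shares of Lox and Loxl3 overlapped between genotypes. Lox had 86.7% in control 1 and 83.8% in PUS10KO 2, and Loxl3 had 3.09% in control 1 and 5.1% in PUS10KO 2. The summed level itself overlapped between genotypes, with 925 ± 343 CPM per kb in control and 754 ± 162 in PUS10KO.

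Plod2 encodes the lysyl hydroxylase that acts on collagen telopeptides and so sets the type of cross-link (ENSMUSG00000032374.14, chromosome 9, 92542223 to 92608428, plus strand). It had 77.3, 126, 88.5 and 126 CPM in controls 1 to 4, against 44.4, 56.2, 39.6 and 42.6 CPM in PUS10KO 1 to 4. The highest PUS10KO library, number 2, lay below the lowest control, number 1. Its mean moved from 104 ± 25.3 to 45.7 ± 7.27 CPM, or 2.29-fold lower (log2 fold change -1.19, SE 0.20, edgeR adjusted p = 0.00476).

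The other lysyl hydroxylase genes did not pass without the block. Plod1, whose enzyme acts on the triple helix, had 45.3, 41.8, 49.1 and 56.2 CPM in controls 1 to 4, against 35.7, 33.3, 38.1 and 42.2 CPM in PUS10KO 1 to 4. Each PUS10KO library was lower than the control of its number by 0.33 to 0.41 on the log2 scale, an even shift across numbers. PUS10KO 4 lay just above control 2, so the genotypes overlapped (log2 fold change -0.37, edgeR adjusted p = 0.113, and 0.00714 with the block). Plod3, whose enzyme also transfers sugars to hydroxylysine, had 252, 205, 149 and 162 CPM in controls 1 to 4, against 378, 241, 168 and 176 CPM in PUS10KO 1 to 4 (log2 fold change 0.33, edgeR adjusted p = 0.519, and 0.049 with the block). The share of Plod2 in the summed level of the 3 genes per kb went from 28.4 ± 6.86% in control to 13.3 ± 3.23% in PUS10KO, and that of Plod3 from 61.1 ± 8.27% in control to 77.8 ± 5.84% in PUS10KO.

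**Figure D3:**
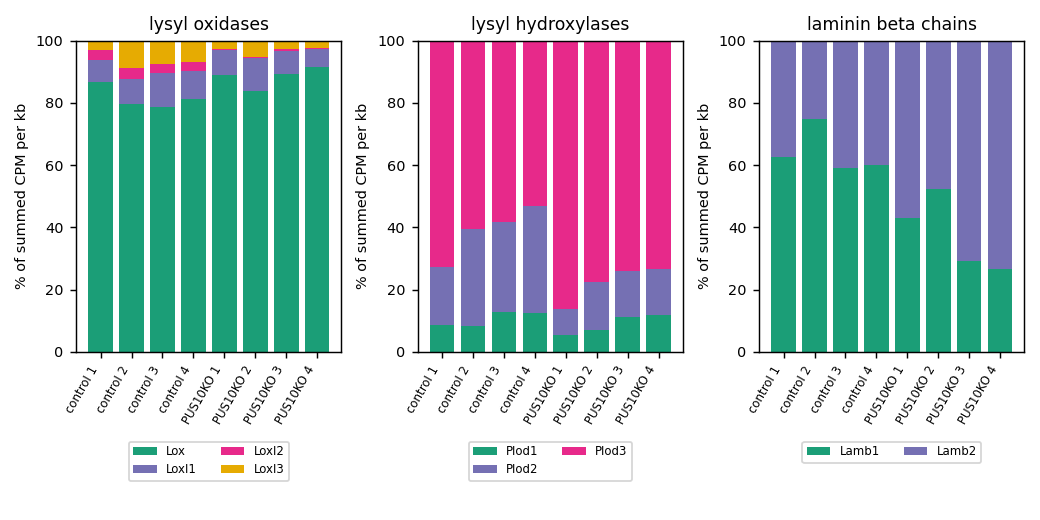
Share of each gene in the summed level per kb of exon of the members of its family, in each of the 8 libraries. The families are lysyl oxidases (without Loxl4, which is not a member), lysyl hydroxylases and laminin beta chains. Loxl2 takes at most 0.469% of its sum in PUS10KO, and the Plod2 and Lamb1 segments are shorter in PUS10KO than in control.

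Serpinh1, which encodes the collagen chaperone HSP47, was the most abundant member per length, with 1148 CPM per kb in control and 1044 in PUS10KO. It had 2830.1, 2964, 2553 and 2875 CPM in controls 1 to 4, against 2872, 2446, 2318 and 2569.8 CPM in PUS10KO 1 to 4, an even level throughout (log2 fold change -0.14, SE 0.13, edgeR adjusted p = 0.555). Pcolce, an enhancer of procollagen C-proteinase, had a log2 fold change of -0.17 (edgeR adjusted p = 0.655). P3h1 and Crtap, whose products form the prolyl 3-hydroxylase complex, had -0.21 and -0.05 (edgeR adjusted p = 0.642 and 0.826). These 4 genes did not pass with the block either.

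Members differed in how far their levels followed the library number. The sum of squares of log2 CPM was split between genotype, number and the rest, as a description. Genotype took a median of 33.0% over the 47 genes and number 52.3%, against 22.1% and 58.0% over all genes tested. Number took more than genotype in 31 of 47 members (66.0%) and in 68.1% of all genes. Number has more levels than genotype, so noise alone gives it the larger share on average, and the shares were not adjusted for this. A larger share for number than for genotype is thus no measure of which had the larger effect. The members can be compared with all genes, where the same split was used. For Loxl2 genotype took 95.5% and number 2.7%, and for Fbln2 94.5% and 3.94%. At the other end stood Thbs1, with 0.376% for genotype and 92.2% for number, Nid1 with 0.572% and 93.9%, and Fbn1 with 0.237% and 92.6%. Lamb1, Fbn2 and Tnc lay between, with 59.6%, 54.2% and 40.8% for genotype.

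**Figure D4:**
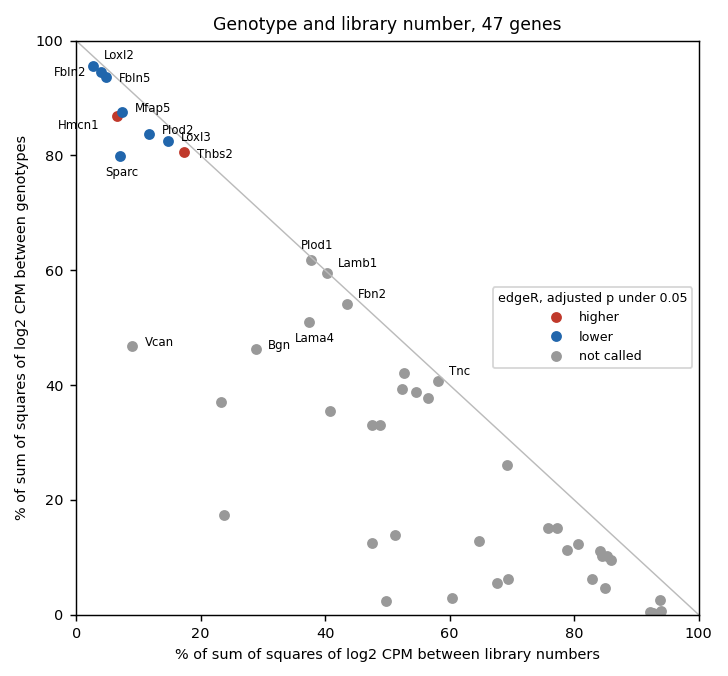
Percent of the sum of squares of log2 CPM between genotypes (vertical axis) against that between library numbers (horizontal axis) for the 47 genes, with the line where both add up to 100. The 9 called genes sit at the upper left, with 80% (Sparc) to 95.5% (Loxl2) between genotypes, and no uncalled gene reaches that share. The calls rest on the same values, so this separation is no further evidence for them.

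Between libraries of the same number, 10 members were higher in PUS10KO in all 4 comparisons and 15 were lower in all 4. Over all tested genes 28.4% were higher and 26.9% lower in all 4, against 21.3% and 31.9% of the members. The median difference of the members was -0.29, -0.22, -0.14 and 0.14 in numbers 1 to 4 on the log2 scale. Number 4 thus had a median of the opposite sign to the others. Fn1 and Lox followed that shift, with number 4 differences of 0.42 and 0.52 after negative ones in numbers 1 and 2. Vcan ran the other way, at 1.00, 1.34 and 0.41 in numbers 1 to 3 and -0.25 in number 4.

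**Figure D5:**
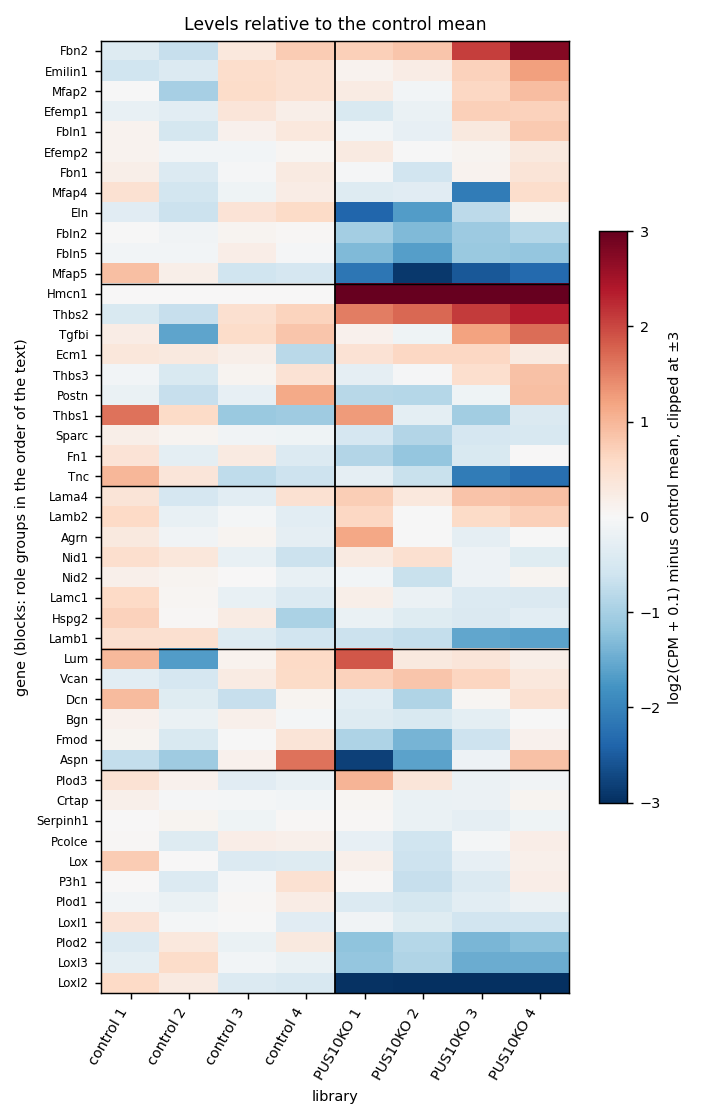
Level of each of the 47 genes in each library as log2(CPM + 0.1) minus the control mean, clipped at ±3, with genes in blocks by role group. Loxl2, Mfap5, Fbln5 and Fbln2 are blue in all 4 PUS10KO columns, while Thbs1 and Tnc are higher in columns 1 and 2 than in columns 3 and 4 of the same genotype.

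Other genes of the matrix were examined in 4 lists that hold none of the 47. Of 126 such genes tested 8 rose and 19 fell, or 21.4%, beside 13.0% of all genes tested. The lists were chosen with earlier results of these data known, so these shares are not an independent comparison. The block gave 32 higher and 38 lower, against a background of 39.0% called. Among 48 other glycoprotein genes 4 rose and 9 fell (27.1%). Fbln7, a further fibulin, moved from 6.72 ± 1.43 to 0.524 ± 0.142 CPM (log2 fold change -3.67, edgeR adjusted p = 0.000171). Igfbp7 had a log2 fold change of -0.87 and Pxdn, whose product peroxidasin forms the sulfilimine cross-links of collagen IV, -0.85 (edgeR adjusted p = 0.00153 and 0.00271). Lama5, the laminin alpha 5 chain gene, moved from 79.9 ± 42.6 to 11.6 ± 4.49 CPM (edgeR adjusted p = 0.00328), and Fras1, a basement membrane protein gene, from 6.78 ± 0.289 to 17.8 ± 4.76 CPM (edgeR adjusted p = 0.00292).

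Of 16 other proteoglycan and hyaluronan genes 1 rose and 2 fell (18.75%, beside 13.0% of all genes tested). The hyaluronan synthase gene Has1, with 5 counts over the controls, moved from 0.0668 ± 0.0811 to 2.14 ± 0.898 CPM (edgeR adjusted p = 0.00299), and the proteoglycan genes Sdc3 and Cspg4 had log2 fold changes of -0.99 and -1.67 (edgeR adjusted p = 0.0117 and 0.0126). Of 26 other collagen modifying and processing genes 2 rose and 3 fell (19.2%). P4ha1, which encodes a catalytic chain of collagen prolyl 4-hydroxylase, moved from 509 ± 92.6 to 224 ± 29.4 CPM (log2 fold change -1.18, edgeR adjusted p = 0.00198). P4ha2 and P4ha3, which encode alternative catalytic chains, went the other way without passing in the main fit. P4ha2 had 170 ± 43.5 CPM in controls against 214 ± 38.7 in PUS10KO (edgeR adjusted p = 0.338, and 0.0183 with the block). P4ha3 had 13.4 ± 1.23 CPM in controls against 17.4 ± 2.51 in PUS10KO (edgeR adjusted p = 0.148, and 0.0315 with the block). P3h2, a prolyl 3-hydroxylase gene, rose from 2.99 ± 1.48 to 12.7 ± 4.12 CPM (edgeR adjusted p = 0.00633), and the transglutaminase gene Tgm2 rose from 28.2 ± 11.5 to 102 ± 54.6 CPM (edgeR adjusted p = 0.0167). Adamts14, a procollagen N-proteinase gene, had a log2 fold change of -1.92 and Sec23a, a coat protein gene of procollagen export, -1.12 (edgeR adjusted p = 0.00958 and 0.0146). Pxdn and Sec23a lie on chromosome 12, whose median is given above. Of 36 glycosaminoglycan synthesis genes 1 rose and 5 fell (16.7%, near the 13.0% of all genes tested). The heparan sulfatase gene Sulf1 fell from 258 ± 47 to 82.8 ± 19.8 CPM (edgeR adjusted p = 0.00128). Sulf2, the other heparan sulfatase gene, was the one that rose, from 58.5 ± 14.6 to 106 ± 22.4 CPM (edgeR adjusted p = 0.0339). That call was kept in 3 of the 8 fits without 1 library. The sulfotransferase gene Hs3st1 had a log2 fold change of -3.07 (edgeR adjusted p = 0.0106) at low levels, with 110 counts over the controls and 14 over PUS10KO. Papss2 and Hs6st1 had log2 fold changes of -1.21 and -0.89 (edgeR adjusted p = 0.026 and 0.0285). Their calls were kept in 6 and 2 of the 8 fits without 1 library.

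Of the 9 called members 8 kept their call in all 8 fits that left out 1 library, Sparc being the exception. The gene spans of 22 members, among them the called genes Hmcn1, Loxl2, Loxl3 and Plod2, overlap a gene annotated on the opposite strand. Since the strand setting of the counting is not given, reads in any shared exon stretch cannot be told apart from those of that gene. Whether exons are shared was not examined.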

How the data were processed

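The authors deposited raw whole-number read counts for each gene and library. STAR 2.7.8a, DESeq2 and mm10 are named in the submitters' processing notes; for the counter, its strand setting, the annotation and any gene filter: not given in the sources used here. The lowest row total was 27 counts. A second deposited table was not used here, because its scale is not stated. The fit used edgeR 4.0.16 in R 4.3.3: filterByExpr, TMM scaling, and the robust quasi-likelihood test with genotype as the only term, Benjamini-Hochberg adjustment over 11909 genes and a threshold of 0.05. All 8 libraries were fitted. Gene positions and exon lengths are those of GENCODE M21 on GRCm38, which is mm10.

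The 47 genes, their role groups and the 4 further lists were chosen with earlier results of these data known. The text names members past the threshold with every library's value. Others are named by the largest change or level per kb in their role group (up to 3 of each) or by range. Of each further list up to 5 called genes are named by lowest p. Role group members outside that rule were named for completeness, and Loxl4, P4ha2 and P4ha3 beside genes of the same families. Alternatives were a replicate block, DESeq2 1.42.0, its size factors in edgeR, limma 3.58.1 voom, no low-count filter, and leaving out each library. What a library number stands for is not in the labels. Same-numbered libraries of the 2 genotypes deviated together from their genotype means (across genes, r = 0.681, 0.722, 0.633 and 0.687). They were treated as pairs on that basis, and the pairing comes from the data, not the labels. Numbers 3 and 4 were nearly as alike (control 4 with PUS10KO 3, r = 0.582, and control 3 with PUS10KO 4, 0.503). Control 2 with PUS10KO 1 had r = 0.303, and control 1 with PUS10KO 2 had 0.0416. Each pair of number 1 or 2 with number 3 or 4 had a negative r. Within numbers 3 and 4 the pairing is thus less clear. Every pair of libraries within a genotype differed by more than sampling noise (smallest chi-square per degree of freedom 18.2).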

Additional observations from a re-analysis of the deposited data

Results flagged for a closer look

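In 93 sets of 4 libraries (47 genes in 2 genotypes, less Hmcn1 in control), the highest or lowest library was compared with the others by Dixon's gap ratio at the 95% level, which chance passes in about 1 of 20 sets. It was passed in 4 sets. Sparc in PUS10KO 2 was the lowest, with 1753 CPM against 2247 to 2307 CPM in the other PUS10KO libraries. Ecm1 in control 4 had 15.9 CPM against 31.5 to 35.6 CPM. Lum in PUS10KO 1 had 2.31 CPM against 0.649 to 0.76 CPM. Crtap in control 1 had 132 CPM against 112 to 115 CPM.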

How the results depend on the processing

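With the replicate block the members called were 9 higher and 14 lower, the further matrix genes 32 higher and 38 lower, and all genes called 4641, against 1550 without it. DESeq2 called 2433 genes in all and 14 further matrix genes as higher. The members' calls kept their direction with DESeq2's size factors, limma voom, DESeq2 and no low-count filter. Without 1 library, 1012 (without PUS10KO 3) to 1332 genes were called, members called higher were 2 to 3 and lower 6 to 8, further matrix genes 7 to 9 and 15 to 19. The members' median log2 fold change ran from -0.28 to 0.00, the latter without control 1. Sparc's call was lost in 7 of these 8 fits (log2 fold change -0.62 to -0.50). Fbn2 passed without PUS10KO 1 or 2 (adjusted p = 0.037 and 0.0493), Lamb1 without control 4 (0.039) and with no filter, Lamb2 without control 1; DESeq2 called Fbn2 and Lamb1 too.

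Log2 fold changes that turned sign without some 1 library, none of them called in those fits, ran over -0.11 to 0.47 (Agrn), -1.53 to 0.14 (Aspn), -0.095 to 0.0126 (Crtap), -0.47 to 0.20 (Dcn), -0.025 to 0.34 (Fbln1), -0.16 to 0.14 (Fbn1), -0.39 to 0.0001 (Lamc1), -0.31 to 0.15 (Lox), -0.019 to 0.98 (Lum), -0.13 to 0.22 (Nid1), -0.74 to 0.34 (Postn) and -1.02 to 0.48 (Thbs1). The cause was not tested. At mean levels under 1 CPM, as for Mfap4 and Lum in control, depth limits what can be seen.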
